A study of Homo sapiens with 12 samples.

Results

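The enzymes described here build, recycle and interconvert purine and pyrimidine nucleotides and supply the folate-bound one-carbon units that these routes consume. The set was given as a list of 31 genes and was not chosen on a threshold of measured values. The list and the tests were nonetheless chosen with earlier results of these data known. Each gene was read from the array probe set of highest mean among those annotated with 1 gene symbol. By that rule 28 of the 31 genes had a probe set, among 11963 genes with one on the array, and 27 of the 28 passed the filter on low signals and were tested with 7178 genes in all. ADSS2, which makes the precursor of AMP, had no matching probe set. UCK2, a uridine and cytidine kinase, and NME2, a nucleoside diphosphate kinase, lay only on probe sets shared with other symbols and were not analysed here. SHMT1, the cytosolic serine hydroxymethyltransferase, read between 6.6 and 41.1 on all 12 arrays, below the filter level of 85.72, and was not tested.

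Purines are assembled atom by atom on a ribose phosphate donor until IMP is formed, and IMP is then turned into AMP or GMP. Pyrimidines are made as a free ring that is attached to ribose phosphate to give UMP, from which CTP and the thymidine nucleotides follow. Folate enzymes donate carbons to the purine ring and to thymidylate, and salvage enzymes reuse free bases and nucleosides. Proliferating tumour cells, melanoma cells among them, draw on these routes for RNA and DNA synthesis.

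Expression was measured on single-colour oligonucleotide arrays in 5 human melanoma cell lines that all carry the BRAF V600E mutation: Malme3M, SkMel-1, SkMel-5, SkMel-19 and SkMel-28. The RAF inhibitor PLX4032 was given for 8 h at 250 nM to all 5 lines and at 1000 nM to SkMel-19 and Malme3M, and cells of each of the 5 lines received the vehicle, 0.1% DMSO, for the same time. That gave 5 arrays at 250 nM, 2 at 1000 nM and 5 with DMSO, 1 array for each line and treatment. The cell lines are therefore the replicates, and these arrays hold no repeat culture of a line. RNA came from whole cultures, so fewer cells of a type and less RNA per cell cannot be told apart. The arrays shared 1 scale, with a trimmed mean signal between 498.3 and 499.9, and the number of arrays limits the precision. Of the melanocyte lineage markers, MITF, PMEL, MLANA, TYR, SOX10 and S100B read above the filter level on all 12 arrays and TYRP1 on 10 of them. The 3 blood markers measured (PTPRC, CD3E and LYZ) and the keratinocyte genes KRT5, KRT14 and EPCAM stayed below it on all 12, while CDH1 read above it on 10. Of the 5 fibroblast markers, LUM and COL1A1 read above it on all 12 arrays, DCN on 5, and COL3A1 and PDGFRA on 0.

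At 250 nM PLX4032, 10 of the 27 enzyme genes fell, 1 rose and 16 did not pass limma's moderated test at an adjusted p under 0.05, over 5 lines. The share that fell was 37% of these enzymes, against 13.1% of all genes tested, and 15.2% of all genes tested rose. The median log2 change of the 27 enzymes was -0.17, against 0.03 over all genes tested. A negative change was found for 21 of the 27, and for 3180 of all 7178 genes tested. Changes are differences of log2(signal + 12), 250 nM minus DMSO, which understate the change of dim genes. The enzymes that fell were PPAT, CTPS1, UMPS, GART, GMPS, DHODH, PRPS1, PFAS, HPRT1 and PAICS, and the one that rose was ADK. Without SkMel-1 the count that fell was 6, and without SkMel-19 it was also 6. The share of all genes called in those fits is not given here. Whether the loss of calls was particular to these enzymes was not tested. Of the 27, 13 were lower at 250 nM in all 5 lines, a pattern that 16.6% of all genes tested showed, and 1 was higher in all 5, which 20.9% of all genes showed. For 4 of the 27 (PPAT, GART, DHODH and UMPS) every 250 nM array read below every DMSO array, which held for 1.31% of all genes tested.

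**Figure D1:**
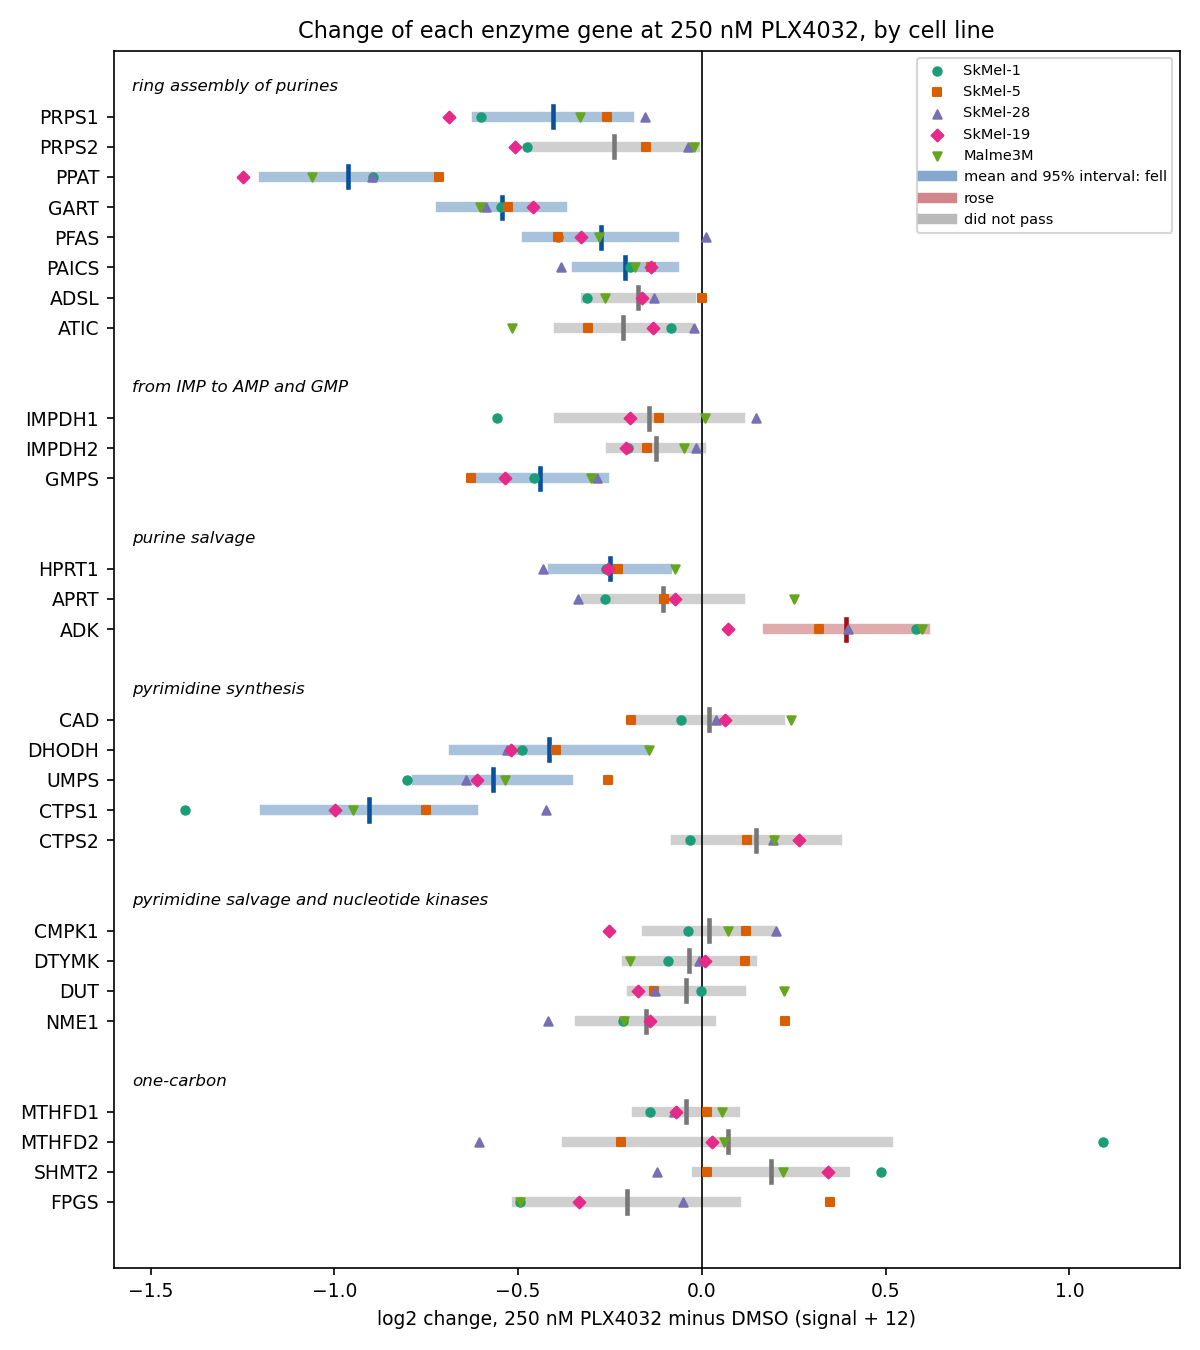
Log2 change of signal + 12, 250 nM PLX4032 minus DMSO (horizontal axis), for the 27 enzyme genes tested, grouped by role; each symbol is 1 cell line, the vertical tick is the limma estimate over 5 lines and the bar its 95% interval, coloured by whether the gene fell, rose or did not pass. The estimates run from -0.96 for PPAT to 0.39 for ADK, all 8 ring assembly genes lie left of 0, and MTHFD2 spans from -0.61 in SkMel-28 to 1.09 in SkMel-1.

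Promoter windows from RefSeq were at hand for 28 of the 31 genes, all but ADSL, IMPDH2 and SHMT2. The E-box CACGTG, searched on both strands, lay in 7 of the 28 (PPAT, PAICS, ATIC, DHODH, NME1, MTHFD1 and FPGS), against 8.77% of 27305 genes in the table. The ETS core CGGAAG lay in 15 of the 28, against 22.6% of the genes in the table, and the C/EBP-ATF core TGATGNAA in 0 of the 28, against 4.46%. The genes in the table were not limited to those tested on the arrays. The E-box and the ETS core cannot share bases. Among the 10 enzymes that fell, 3 held the E-box and 6 the ETS core, and among the 13 with a window that did not pass, 4 held the E-box and 7 the ETS core. A match is a description of the letters in these windows. The 250 bases before the start are shown for 4 of the genes with large falls or groups that did not overlap. These 4 were picked because a motif lies in those bases. GART, whose ETS core lies 7 bases after its start, is not shown. Sequences run 5′ to 3′ on the gene's strand of GRCh38.p14, with the E-box CACGTG and the ETS core CGGAAG in capitals. For CTPS1 it is 1 of 2 windows, and the other held no match to the motifs searched.
PPAT (chr4:56435616-56435865, minus strand): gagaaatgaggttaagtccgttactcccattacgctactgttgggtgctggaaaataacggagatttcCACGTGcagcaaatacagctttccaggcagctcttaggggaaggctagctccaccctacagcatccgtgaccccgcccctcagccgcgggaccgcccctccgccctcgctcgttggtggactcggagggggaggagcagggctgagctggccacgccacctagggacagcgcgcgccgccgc
CTPS1 (chr1:40979446-40979695, plus strand): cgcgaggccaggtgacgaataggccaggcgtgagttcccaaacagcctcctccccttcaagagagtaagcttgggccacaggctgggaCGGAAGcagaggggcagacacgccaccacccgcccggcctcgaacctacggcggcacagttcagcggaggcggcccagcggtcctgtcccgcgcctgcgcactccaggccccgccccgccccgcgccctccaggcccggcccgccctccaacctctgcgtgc
UMPS (chr3:124730202-124730451, plus strand): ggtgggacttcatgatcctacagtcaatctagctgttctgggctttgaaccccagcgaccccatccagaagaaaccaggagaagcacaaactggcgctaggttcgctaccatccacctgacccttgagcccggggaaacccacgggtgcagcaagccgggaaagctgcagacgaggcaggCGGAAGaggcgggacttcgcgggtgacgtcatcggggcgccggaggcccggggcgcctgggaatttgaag
DHODH (chr16:72008494-72008743, plus strand): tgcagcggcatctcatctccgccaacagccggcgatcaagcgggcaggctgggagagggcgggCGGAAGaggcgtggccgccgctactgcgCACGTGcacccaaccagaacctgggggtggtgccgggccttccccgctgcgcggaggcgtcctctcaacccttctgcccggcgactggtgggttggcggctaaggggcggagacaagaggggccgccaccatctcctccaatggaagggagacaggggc
The PPAT stretch holds the E-box, 182 bases before the start, and the same letters lie 40 bases after one start of the neighbouring PAICS. CTPS1 and UMPS hold the ETS core, 162 and 70 bases before their starts, and DHODH holds both, at 159 and 187 bases before its start for the E-box and the ETS core. PPAT and PAICS are neighbours in the genome that are read in opposite directions from a shared stretch of DNA. In the RefSeq annotation of GRCh38.p14 the PPAT start site on the minus strand of chromosome 4 and one PAICS start site on the plus strand are 137 bases apart. The promoter windows of these starts, from 250 bases before to 50 after each, share 236 bases. Other annotated PAICS starts lie 25108 and 645 bases from the PPAT start, and their windows share 0 bases with the PPAT window.

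All 8 genes of the assembly of IMP had a negative change at 250 nM, beside 3180 of all 7178 genes tested. Of the 8, 5 fell: PPAT, GART, PRPS1, PFAS and PAICS. Their median log2 change was -0.26. PPAT, the amidotransferase that commits ribose phosphate to purine synthesis, had signals of 314.3 in SkMel-1, 238.7 in SkMel-5, 257 in SkMel-28, 248.6 in SkMel-19 and 187.1 in Malme3M at 250 nM. With DMSO the same lines read 594.3, 399.7, 489.2, 606.7 and 403.5. The highest 250 nM array lay below the lowest DMSO array. The fall was 1.95-fold (log2 change -0.96, SE 0.10, limma adjusted p = 0.000435), and a second PPAT probe set moved by -0.76, lower in 5 of 5 lines.

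GART carries several of the assembly steps in a single protein, among them one that uses formyl-folate. Its signal at 250 nM was 575.9 in SkMel-1, 813 in SkMel-5, 584.4 in SkMel-28, 614.7 in SkMel-19 and 735.9 in Malme3M. The corresponding DMSO signals were 847.5, 1177.2, 884.5, 849 and 1123.8. The groups did not overlap, and the 5 lines differed little in the size of the change, between -0.60 and -0.46. The fall was 1.46-fold (log2 change -0.54, SE 0.07, limma adjusted p = 0.00129), and the other 3 GART probe sets above the filter level gave -0.61, -0.59 and -0.47.

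PRPS1, which makes the ribose phosphate donor, read 1291.2 in SkMel-1, 1327.5 in SkMel-5, 1604.4 in SkMel-28, 1032.7 in SkMel-19 and 1118.7 in Malme3M at 250 nM. These lines read 1963.2, 1590.8, 1786.7, 1669.6 and 1410.2 with DMSO, in the same order. Each line was lower with drug, although SkMel-28 at 250 nM stood above SkMel-5 and Malme3M with DMSO (log2 change -0.41, SE 0.09, limma adjusted p = 0.0124). Its paralogue PRPS2 was also lower in 5 of 5 lines but did not pass (-0.24, SE 0.10, limma adjusted p = 0.0953).

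PFAS and PAICS fell by less. PFAS, the amidotransferase that acts after the first formyl transfer, fell by 0.28 on the log2 scale (SE 0.09, limma adjusted p = 0.0455), lower in 4 of 5 lines, with SkMel-28 at 687 with drug and 681 with DMSO. PAICS, which joins carboxylation and the addition of aspartate in a single protein, fell by 0.21 (SE 0.06, limma adjusted p = 0.0285), lower in 5 of 5 lines. The PFAS call was lost on leaving out SkMel-1, SkMel-5, SkMel-19 or Malme3M (limma adjusted p up to 0.121), and the PAICS call on leaving out SkMel-1, SkMel-28, SkMel-19 or Malme3M (limma adjusted p up to 0.0926). The PFAS call was also lost with no filter on low values (limma adjusted p = 0.0663), and the PAICS call with the mean of its probe sets (-0.16, limma adjusted p = 0.265) or no variance trend (limma adjusted p = 0.07). ADSL, the lyase of the assembly and AMP branches, and ATIC, which closes the ring, were lower in 5 of 5 lines without passing (-0.17, SE 0.06 and -0.21, SE 0.08, limma adjusted p = 0.0685 and 0.0684). A second ADSL probe set above the filter level moved by -0.40, lower in 5 of 5 lines. ADSL passed in 5 of the 17 alternatives, among them the mean of its probe sets (-0.29, limma adjusted p = 0.0186).

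**Figure D2:**
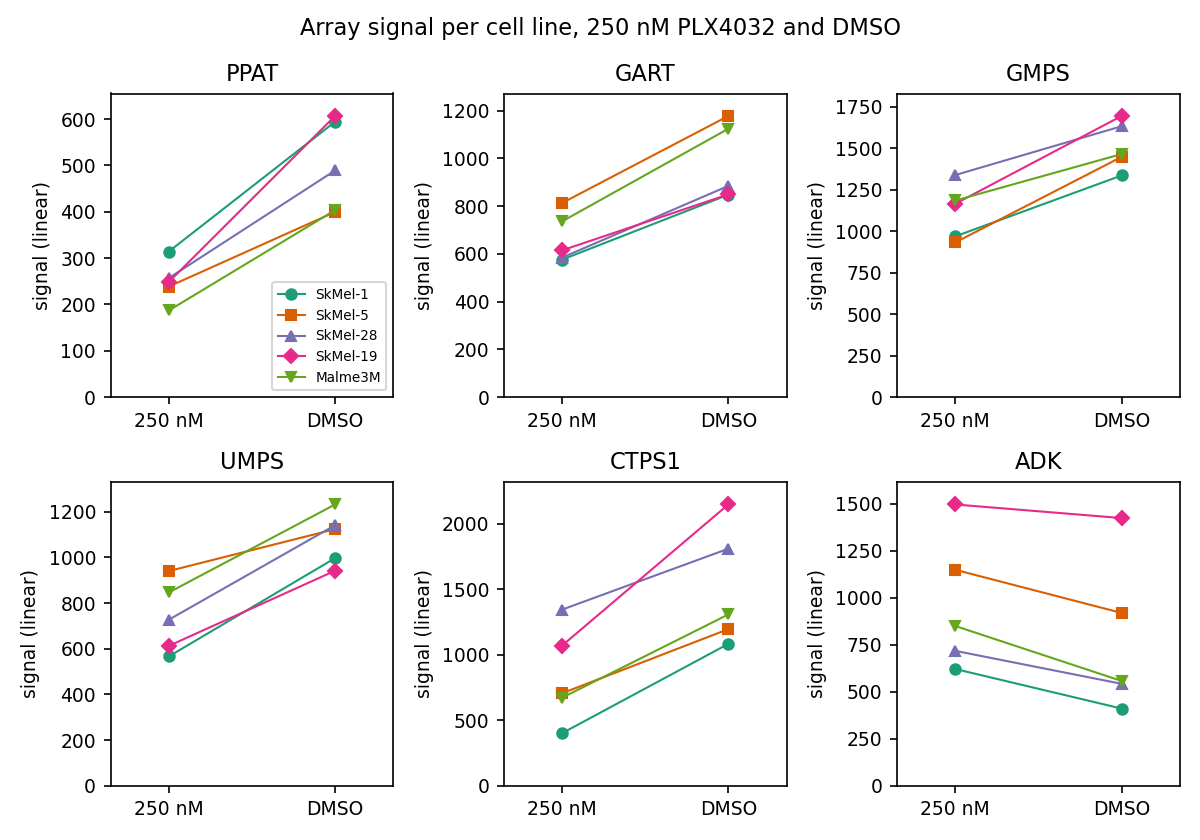
Deposited signal (vertical axes, arbitrary units, from 0) in each cell line at 250 nM PLX4032 (left of each panel) and with DMSO (right), with a line joining the arrays of 1 cell line, for PPAT, GART, GMPS, UMPS, CTPS1 and ADK. PPAT, GART and UMPS show no overlap between the groups, and ADK is higher with drug in all 5 lines.

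Of the 3 measured genes that lead from IMP to GMP, GMPS fell and both IMP dehydrogenases did not pass. GMPS, the amidotransferase that makes GMP from XMP, read 969.8 in SkMel-1, 933.2 in SkMel-5, 1339.5 in SkMel-28, 1166.3 in SkMel-19 and 1186 in Malme3M at 250 nM. In the same order the lines read 1336.7, 1448.7, 1633.7, 1695.5 and 1465.9 with DMSO. Every line was lower with drug, and the groups touched only where SkMel-28 at 250 nM stood just above SkMel-1 with DMSO. The log2 change was -0.44 (SE 0.08, limma adjusted p = 0.00422), a 1.36-fold fall. IMPDH2, the dehydrogenase isoform usually dominant in proliferating cells, was at -0.12 (SE 0.05, limma adjusted p = 0.115), and IMPDH1 at -0.14 (SE 0.11, limma adjusted p = 0.35).

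Of the 3 salvage genes of the purine side 1 fell, 1 rose and 1 did not pass. HPRT1, which returns hypoxanthine and guanine to nucleotides, fell by 0.25 on the log2 scale (SE 0.07, limma adjusted p = 0.0262) and was lower in 5 of 5 lines, with signals from 1439.3 to 2217.4 at 250 nM and from 1721.4 to 2599.9 with DMSO. Its call was lost on leaving out SkMel-1, SkMel-5, SkMel-28 or SkMel-19 (limma adjusted p up to 0.0909). ADK, the kinase that returns adenosine to AMP, rose by 0.39 (SE 0.10, limma adjusted p = 0.0162), 1.31-fold. It read 620.1 in SkMel-1, 1147.6 in SkMel-5, 716.7 in SkMel-28, 1494.9 in SkMel-19 and 848.8 in Malme3M at 250 nM, against 409.9, 918.4, 541.5, 1422.7 and 556.8 with DMSO. All 5 lines were higher with drug, SkMel-19 by the least (0.07), and the groups overlapped, with a 3.47-fold range of signal between lines with DMSO. Without Malme3M the change was 0.34 and did not pass (limma adjusted p = 0.0522), and a dimmer ADK probe set, below the filter level, moved by -0.08. APRT, the adenine counterpart of HPRT1, did not pass (-0.11, SE 0.09, limma adjusted p = 0.419).

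On the pyrimidine side 3 of the 5 synthesis genes fell, with a median log2 change of -0.42: CTPS1, UMPS and DHODH. CTPS1, which turns UTP into CTP, had signals of 400.3 in SkMel-1, 704.9 in SkMel-5, 1343.1 in SkMel-28, 1068.8 in SkMel-19 and 671 in Malme3M at 250 nM. With DMSO these lines read 1081.7, 1194, 1807.7, 2145 and 1306.1. The fall differed among lines, from -1.41 in SkMel-1 to -0.43 in SkMel-28, and the groups overlapped. It was 1.87-fold over the 5 lines (log2 change -0.91, SE 0.13, limma adjusted p = 0.00156).

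UMPS, which attaches the ring to ribose phosphate and decarboxylates it to UMP, read 566.2 in SkMel-1, 940.3 in SkMel-5, 727.1 in SkMel-28, 612.4 in SkMel-19 and 846.4 in Malme3M at 250 nM. Their DMSO arrays read 996.7, 1123.7, 1140.8, 941.6 and 1231.7. The 250 nM arrays lay below the DMSO arrays in full (log2 change -0.57, SE 0.09, limma adjusted p = 0.0029). A second UMPS probe set gave -0.54, whereas another one, below the filter level, gave -0.22 and did not pass where it stood for the gene (limma adjusted p = 0.28). DHODH, the mitochondrial dehydrogenase that makes orotate, was dim, at 119, 100.1, 128.1, 119.2 and 130.3 with drug in the same order of lines, against 172, 135.6, 190.2, 176 and 145.3 with DMSO. Its groups did not overlap (log2 change -0.42, SE 0.11, limma adjusted p = 0.0262), although the call was lost on leaving out SkMel-1, SkMel-5, SkMel-28 or SkMel-19 (limma adjusted p up to 0.0793) and with no filter on low values (limma adjusted p = 0.0622).

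CAD, the protein that carries the opening steps of the pathway, did not pass. It read 419.7 in SkMel-1, 582.1 in SkMel-5, 1235.1 in SkMel-28, 901.1 in SkMel-19 and 960.8 in Malme3M at 250 nM, against 437, 667.1, 1203.1, 862.7 and 809.8 with DMSO. The change was 0.02 with a 95% interval from -0.17 to 0.21 (limma adjusted p = 0.889), lower in 2 lines and higher in 3, and its sign turned when arrays were centred on their medians (-0.01). CTPS2, the second CTP synthase, did not pass either (0.15, SE 0.10, limma adjusted p = 0.279).

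None of the 4 genes tested for pyrimidine salvage and nucleotide kinases passed, by limma with 0 of them at an unadjusted p under 0.05, where 18.5% of all genes were lower and 22.9% higher, and their median log2 change was -0.04. CMPK1, the UMP and CMP kinase, was at 0.02, DTYMK, the thymidylate kinase, at -0.03, and DUT, which removes dUTP, at -0.04 (limma adjusted p = 0.86, 0.765 and 0.661). The signs of these 3 are not settled, since CMPK1 gave -0.01 with arrays centred on their medians, DTYMK 0.01 without Malme3M and DUT 0.13 and 0.02 on its other probe sets. NME1, a nucleoside diphosphate kinase, was at -0.15 (SE 0.08, limma adjusted p = 0.176) and lower in 4 of 5 lines. Without SkMel-5, the line that stood higher with drug, its change was -0.25 and passed (limma adjusted p = 0.0198). That was the only 1 of 17 alternatives in which NME1 passed, and it leaves out the line of opposite sign.

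None of the 4 one-carbon genes tested passed, again with 0 at an unadjusted p under 0.05 by limma, and their median log2 change was 0.01. MTHFD2, the mitochondrial dehydrogenase and cyclohydrolase of the folate route, had the widest spread of changes among lines of the 27 enzymes (SD 0.63). Its signal at 250 nM was 4052.3 in SkMel-1, 1746.5 in SkMel-5, 1485.3 in SkMel-28, 3027.2 in SkMel-19 and 2992.6 in Malme3M, against 1897.3, 2037.8, 2267.1, 2970.4 and 2871.9 with DMSO. SkMel-1 was higher with drug by 1.09 on the log2 scale and SkMel-28 lower by 0.61, while SkMel-19 and Malme3M stood within 0.06 of their DMSO arrays. The mean over lines was 0.07 (SE 0.19, limma adjusted p = 0.814), and without SkMel-1 it was -0.19 (limma adjusted p = 0.271). SHMT2, the mitochondrial enzyme that takes a carbon from serine, was higher with drug in 4 of 5 lines without passing (0.19, SE 0.09, limma adjusted p = 0.141), with SkMel-1 again the highest at 0.49. FPGS, which adds glutamate tails that keep folates in the cell, was at -0.21 (SE 0.13, limma adjusted p = 0.27), and MTHFD1, the cytosolic folate enzyme, at -0.04 (SE 0.06, limma adjusted p = 0.611).

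Several members have a paralogue or a related enzyme among them, and these were set against each other within each line. An exact sign-flip test, two-sided and over 5 lines, was applied to the difference between the members' changes and adjusted over 5 pairs, that of PPAT and PAICS included, and 5 lines allow no p below 0.0625. The PPAT and PAICS pair was added after the values had been seen, and the adjusted p of the other pairs depends on it. CTPS1 minus CTPS2 was -1.05 on the log2 scale (SD 0.31, 95% interval -1.43 to -0.67, lower in 5 of 5 lines, exact p = 0.0625, adjusted p = 0.104). PRPS2 minus PRPS1 was 0.17 (SD 0.08, interval 0.06 to 0.27, above 0 in 5 of 5 lines, exact p = 0.0625, adjusted p = 0.104). IMPDH2 minus IMPDH1 was 0.02 with an interval from -0.23 to 0.27 (exact p = 1), and MTHFD2 minus MTHFD1 was 0.11 with an interval from -0.72 to 0.95 (exact p = 0.812). The intervals of these last pairs include 0 and leave room for differences in both directions. SHMT2 against SHMT1 and NME1 against NME2 could not be compared for want of a tested partner.

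**Figure D3:**
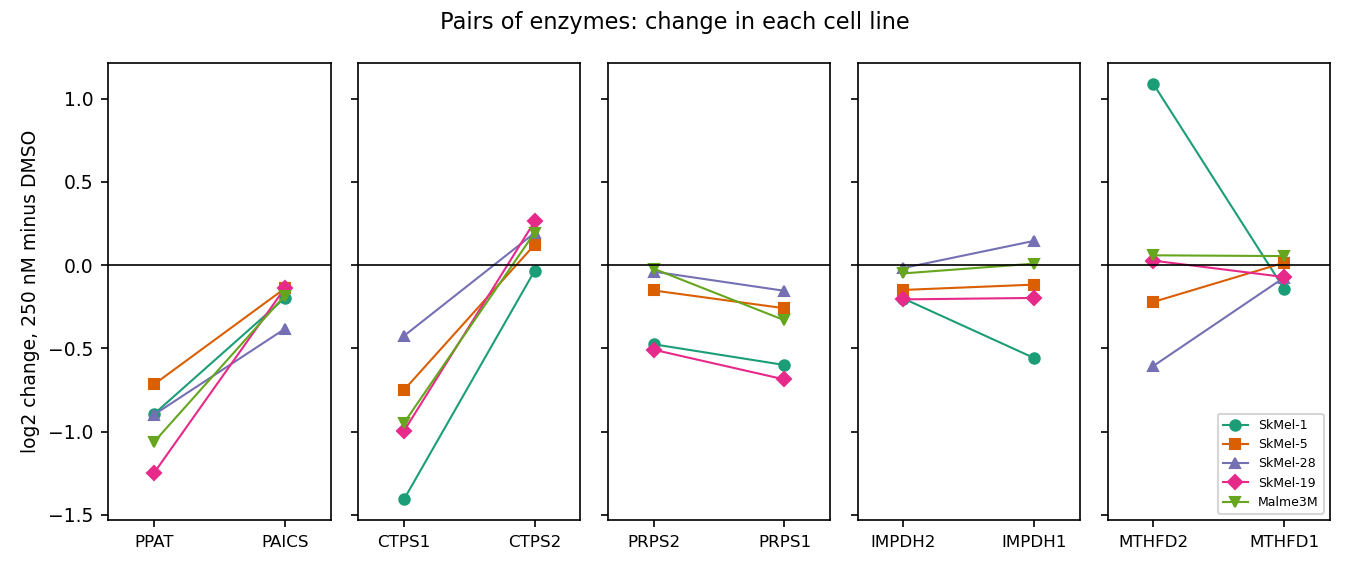
Log2 change at 250 nM PLX4032 relative to DMSO (vertical axis) of both members of each of the 5 pairs, with a line joining the values of 1 cell line. CTPS1 lies below CTPS2 and PPAT below PAICS in all 5 lines, with mean differences of -1.05 and -0.76.

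The neighbours PPAT and PAICS formed the remaining pair, and the window of one annotated PAICS start overlaps that of PPAT. PPAT minus PAICS was -0.76 on the log2 scale (SD 0.24, 95% interval -1.06 to -0.46, lower in 5 of 5 lines, exact p = 0.0625, adjusted p = 0.104). This pair was added after the values had been seen, so its p is a description and not an independent test. With the other PAICS probe set, which moved by -0.34, the difference was -0.62.

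At 1000 nM, in SkMel-19 and Malme3M, 4 of the 27 enzymes fell and 0 rose by limma, against 5.89% of all genes that fell and 5.29% that rose. At an unadjusted p under 0.05, 8 were lower and 1 higher, against 14.7% and 17.5% of all genes. In these same lines at 250 nM, 5 fell and 0 rose by limma, against 5.36% and 5.98% of all genes, with 10 lower and 0 higher at an unadjusted p under 0.05, against 14% and 18.7% of all genes. Both comparisons use the same DMSO arrays and an error pooled over the 6 arrays of these lines, with 2 residual degrees of freedom. PPAT, CTPS1, UMPS and GART fell at both doses, and PRPS1 passed at 250 nM (-0.51, limma adjusted p = 0.0485) while at 1000 nM it stood at -0.49 (limma adjusted p = 0.0519). With no filter on low values, low signals raised to the filter level, the mean of probe sets or no variance trend, the count at 250 nM in these lines was 2, PPAT and CTPS1. In those settings the UMPS, GART and PRPS1 calls at 250 nM were lost, with limma adjusted p from 0.0557 to 0.0938. The share of all genes called in those settings is not given here, and whether the loss of calls was general was not tested.

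Signals at the lower and the higher dose stood close together for these 4 genes. PPAT read 606.7 with DMSO, 248.6 at 250 nM and 290.6 at 1000 nM in SkMel-19, and 403.5, 187.1 and 170.1 in Malme3M. CTPS1 read 2145, 1068.8 and 1105.3 in SkMel-19 and 1306.1, 671 and 705.5 in Malme3M over the same doses. Both genes were far below their DMSO signal at either dose in both lines. UMPS read 941.6, 612.4 and 647.3 in SkMel-19 and 1231.7, 846.4 and 714.6 in Malme3M. GART read 849, 614.7 and 560.7 in SkMel-19 and 1123.8, 735.9 and 826.3 in Malme3M. SkMel-19 and Malme3M thus differed in which dose gave the lower signal for PPAT, UMPS and GART. At 1000 nM against DMSO the log2 changes were -1.11 for PPAT (SE 0.15, limma adjusted p = 0.0111), -0.91 for CTPS1 (SE 0.10, limma adjusted p = 0.00735), -0.65 for UMPS (SE 0.12, limma adjusted p = 0.0285) and -0.51 for GART (SE 0.12, limma adjusted p = 0.0488). With low signals raised to the filter level, the UMPS and GART calls at 1000 nM were lost (limma adjusted p = 0.0746 and 0.0897), as they were with the mean of probe sets (0.0588 and 0.0796).

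No enzyme passed between 1000 nM and 250 nM by limma, where 0% of all genes fell and 0% rose, and where 38 genes (0.529%) were lower and 37 (0.515%) higher at an unadjusted p under 0.05. The 1000 nM minus 250 nM difference was 0.04 for PPAT (95% interval -0.31 to 0.40), 0.06 for CTPS1 (-0.18 to 0.30), -0.08 for UMPS (-0.38 to 0.22) and 0.02 for GART (-0.28 to 0.31). The 2 enzymes among those at an unadjusted p under 0.05 were FPGS and PFAS. FPGS read 591, 466.7 and 651.4 at DMSO, 250 nM and 1000 nM in SkMel-19, and 381.6, 267.4 and 678.6 in Malme3M. PFAS read 872.2, 692.5 and 958.4 in SkMel-19 and 670.6, 549.8 and 751.3 in Malme3M. Both genes were lowest at 250 nM in both lines, with a difference between doses of 0.89 for FPGS (SE 0.21) and 0.45 for PFAS (SE 0.11), each at a limma adjusted p = 0.999.

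**Figure D4:**
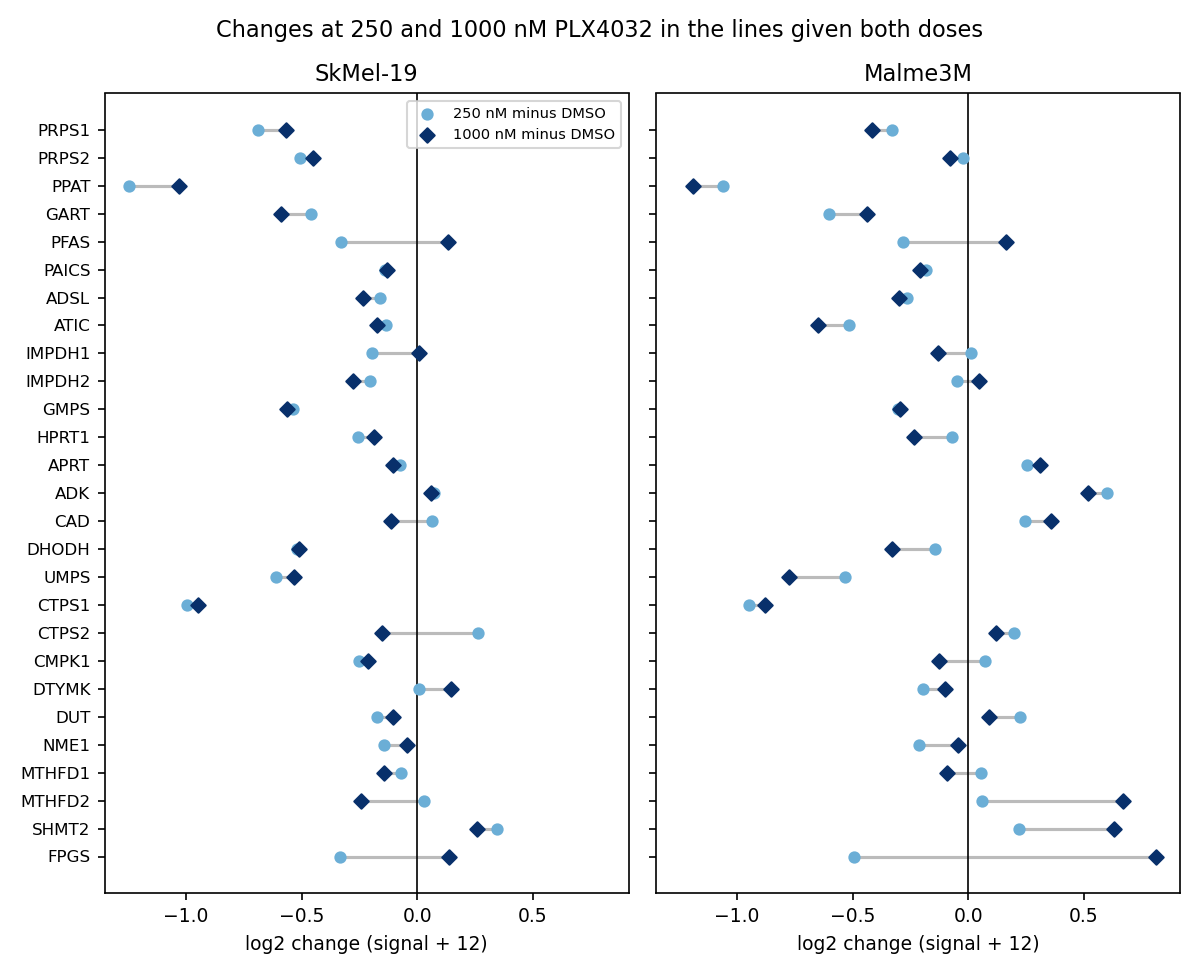
Log2 change relative to DMSO (horizontal axis) of the 27 enzymes in SkMel-19 (left) and Malme3M (right), at 250 nM (circles) and 1000 nM (diamonds) PLX4032, joined by a line. PPAT and CTPS1 lie far left of 0 at both doses in both lines, and FPGS and PFAS lie left of 0 at 250 nM and right of 0 at 1000 nM.

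The wider pathways were read from a list of 64 further genes, of which 40 were tested. At 250 nM 10 of the 40 fell and 3 rose by limma, against 13.1% and 15.2% of all genes tested, with a median log2 change of 0.00. The largest falls were those of PNP, the purine nucleoside phosphorylase (-1.05, SE 0.12, limma adjusted p = 0.000736), and GLDC, the glycine decarboxylase that feeds the folate pool (-0.99, SE 0.20, limma adjusted p = 0.00836). MAT2A, which makes S-adenosylmethionine, was at -0.67, the mitochondrial folate carrier SLC25A32 at -0.64, DCTPP1, which clears dCTP, at -0.55, and the methionine synthase reductase MTRR at -0.48, and all 4 fell, lower in 5 of 5 lines (limma adjusted p from 0.00109 to 0.00318). The genes that rose were TK2, the mitochondrial thymidine kinase (0.43, SE 0.11), DLD, a subunit of the glycine cleavage system (0.38, SE 0.06), and PRPSAP1, a partner of the ribose phosphate synthetases (0.34, SE 0.08), at limma adjusted p = 0.0233, 0.00364 and 0.0165. Of the 28 nucleotide genes in this list 5 fell (17.9%) and 2 rose, and of the 12 one-carbon genes 5 fell (41.7%) and 1 rose, beside the same shares of all genes.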

How the data were processed

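Gene expression was measured on 12 arrays of 5 established melanoma cell lines. The deposited values are linear intensity values, 1 per probe set and array, for 22277 probe sets, made with GCOS per the submitters' processing notes. The probe summary and the background method were not given in the sources used here. No array was rescaled. Control probe sets (62) were removed, gene names came from the platform's annotation table, and each gene was read from its probe set of highest mean among those with 1 symbol. Values were analysed as log2(value + 12), 12 being the 20th percentile. The 7178 genes at or above the 40th percentile of gene means (6.61) were tested with limma 3.58.1 in R 4.3.3, with cell line as a block, a trend in the prior variance and Benjamini-Hochberg adjustment over all genes tested, at a threshold of 0.05. The 250 nM fit used 10 arrays and 4 residual degrees of freedom. The block is the cell line named in the labels, so the DMSO and drug arrays of a line are paired by design. Paired genes were compared by an exact sign-flip test over lines, and the limma script was tested on simulated data. All members with a probe set are named, whatever their result, and of the further pathway genes the up to 6 largest falls and rises that passed. The members, gene lists and tests were chosen with earlier results of these data known. The alternatives tried were the pseudocount, the filter, the scaling, the choice of probe set, the variance trend, the block, the lines left out and a joint fit of all 12 arrays.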

Additional observations from a re-analysis of the deposited data

Results flagged for a closer look

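Over 81 groups of 5 arrays or changes tested for a value far from the others, 3 stood apart, and chance flags about 1 in 20 such groups. All 3 were in SkMel-28. The PFAS change at 250 nM was 0.0124 in SkMel-28, whereas the other lines lay between -0.39 and -0.28. The PAICS change at 250 nM was -0.38 in SkMel-28, against -0.20 to -0.14 in the others. The APRT signal at 250 nM was 801.4 in SkMel-28, against 1340.4 to 1587.7 in the other lines.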

How the results depend on the processing

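Across the alternatives, the calls of PPAT, GART, GMPS, CTPS1 and PRPS1 at 250 nM were lost only without the replicate block, where 0 enzymes fell and 0 rose. That fit leaves the large differences between lines in the error. The block was the main fit because the labels name the line. The count that fell at 250 nM ran from 6 to 9 with 1 line left out, at 6 without SkMel-1 and 6 without SkMel-19, and the count that rose from 0 to 1, at 0 without Malme3M and 0 with the mean of all probe sets. The count that fell at 1000 nM was 2 with low signals raised to the filter level and 0 with no replicate block. In SkMel-19 and Malme3M at 250 nM it was 2 with no filter, 2 with low signals raised, 3 with quantile normalization, 2 with the mean of probe sets, 2 with no variance trend and 0 with no replicate block. These counts stand without the share of all genes called in each setting, and whether a loss of calls was general was not tested. With 1 line left out the median at 1000 nM against DMSO ran from -0.17 to -0.10 and that of 1000 nM minus 250 nM from -0.0375 to 0.0096. Signs turned for CAD (-0.01) and CMPK1 (-0.0081) with arrays centred on their medians, for DUT with the mean of probe sets (0.0359) or one without the suffixes of shared probes (0.13), and for IMPDH2 minus IMPDH1 with quantile normalization (-0.0073). Leaving out 1 line, MTHFD2 ran from -0.19 to 0.24, CMPK1 from -0.0248 to 0.0891, CAD from -0.0375 to 0.0715, DTYMK from -0.0721 to 0.0061, IMPDH2 minus IMPDH1 from -0.0656 to 0.0646 and MTHFD2 minus MTHFD1 from -0.17 to 0.27. Causes were not tested. Signals near the filter level, such as DHODH, limit precision.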

Other observations

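The size of the change differed among lines, but each line had 1 array per treatment, so no error within a line is known. With drug at 250 nM, the median change of the 27 enzymes was -0.26 in SkMel-1, -0.15 in SkMel-5, -0.13 in SkMel-28, -0.20 in SkMel-19 and -0.14 in Malme3M. Over all genes tested the medians were 0.02, 0.01, 0.03, 0.03 and 0.05 in the same order of lines. Of the 27 enzymes, 24, 19, 21, 21 and 17 were lower, and the share of all genes lower in each line was not counted. In Malme3M the 10 enzymes that fell had a median change of -0.32, against -0.57 over all 941 genes that fell. In SkMel-1 the corresponding values were -0.52 and -0.59, and in SkMel-5 -0.39 and -0.38. They were -0.43 and -0.45 in SkMel-28, and -0.53 and -0.47 in SkMel-19. These values are descriptions, since the genes were chosen by the mean over the same lines. With DMSO alone the signal of an enzyme differed between the highest and the lowest line by 1.27-fold for GMPS and 1.31-fold for UMPS, and by 3.47-fold for ADK, 2.9-fold for CTPS2, 2.87-fold for PRPS2 and 2.75-fold for CAD.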
